A study of Mus musculus with 6 samples.

Results

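The aminoacyl-tRNA synthetase genes were followed in mouse oocytes at metaphase II (MII), where meiosis halts until a sperm enters. The genes were chosen by symbol: one capital letter followed by "ars", with or without a closing 1 or 2, together with Farsa, Farsb and Eprs. This gave 37 genes, of which 20 formed the cytosolic group and 17, with symbols ending in 2, the mitochondrial group. All 37 were among the 54658 genes of the single-oocyte table, and 35 were among the 14165 genes of the table of pools, where Mars stood under Mars1 and where Hars2 and Yars were not analysed.

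The RNA was amplified by Smart-seq2, a PCR-based full-length method for polyadenylated RNA, and the study asked how the transcriptome of the oocyte differs with age and after depletion of Plat, the gene of tissue-type plasminogen activator. One sample held 59 single MII oocytes of aged mice and one sample 35 single MII oocytes of young mice, all untreated, with 1 library for each oocyte. The other 4 samples were pools of 10 young MII oocytes, 2 treated with a control small interfering RNA (siCtrl) and 2 with one against Plat (siPlat). Strain, age in weeks, the animals behind each library and the way the interfering RNA was delivered are not given in the sources used here. The spread between replicates may be technical and p-values measure only the spread between these pools.

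An aminoacyl-tRNA synthetase activates an amino acid with ATP and joins it to the matching transfer RNA, the charged form that the ribosome uses. Class I and class II enzymes have unrelated catalytic folds, and several cytosolic synthetases sit with the scaffold proteins Aimp1, Aimp2 and Eef1e1 in a large multisynthetase complex. Mitochondria import their own set of enzymes, mostly encoded by separate nuclear genes, although Gars and Kars each supply both compartments and are counted as cytosolic here by their symbols. The MII oocyte is transcriptionally silent and lives on stored maternal messenger RNA, whose translation is tightly timed.

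The targeted gene was low in both siPlat pools, at 51.4 and 39.0 CPM (counts scaled to a common total per library) against 441 and 439 CPM for Plat in the siCtrl pools. Pools held 12142884 to 17475952 gene counts, and single oocytes 2018230 to 11894800. Among the aged oocytes, 21 of 59 had more than 5% of their counts on mitochondrially encoded genes (6.78% to 61.6%), whereas the other 38 had 0.947% to 2.97% and the 35 young oocytes 0.688% to 1.92%. These 21 also had fewer genes with a count, 7385 to 13849 against 14724 to 17623 in the other aged oocytes. Their 10 oocyte markers summed to 700.4 to 5022 CPM against 16373 to 25075 CPM in young oocytes, with Gdf9 at 126 CPM and Mos at 10.5 CPM over the 21. Results on age are therefore given with and without these 21 libraries. The 12 cumulus and granulosa genes summed to a median of 93.01 CPM in young oocytes, 94.5 CPM in the 38 aged and 46.3 CPM in the 21. Most of this was Cyp19a1 (70.3 CPM in young), Nr5a2 (12.9) and Kitl (9.05), while the defining genes Fshr, Foxl2 and Amh had 0 counts in young oocytes. Over the 21, Cyp19a1 was lower, at 6.51 CPM, but Nr5a2 and Kitl were higher, at 23.7 and 21.1 CPM. Among blood genes, C1qb was lower in the 21 (1.18 against 9.997 CPM in young). Hba-a1 was higher (7.95 against 0.0659 CPM), its highest oocyte at 86.7 CPM. No oocyte column was a copy of another (0 identical among 94).

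None of the 5 promoter motifs searched was common to all members. RefSeq (GRCm38.p6) gave the 250 bases before the start of 27 of the 37 genes; among the rest, Cars, Hars, Hars2, Lars, Nars, Pars2, Rars, Vars and Wars are named only. Their GC content ran from 45.2% in Farsb to 71.6%, with a median of 56.4% against 52.4% over all 32851 windows. The element TGATGNAA, the composite site bound by Atf4 with C/EBP proteins in amino acid response genes, was searched on both strands and stood in 3 of the 27 (11.1%) against 3.45% of all windows. The sites of Gars and Tars, both on the strand opposite to the gene, are shown with the matching bases in capitals (Gars chr6:55037960-55037989, plus strand; Tars chr15:11399659-11399684, minus strand).
Gars: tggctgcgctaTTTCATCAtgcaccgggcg
Tars: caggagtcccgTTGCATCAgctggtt
The ETS core CCGGAAG stood in 7 of 27 (25.9%) against 6.91%, the CCAAT box in 12 (44.4%) against 33.8%, the NRF1-like motif in 2 (7.41%) against 4.98% and TATAAA in 3 (11.1%) against 12.4%, again on both strands. The whole window is shown for Farsb, which rose in the siPlat pools and held none of these motifs (chr1:78488898-78489147, minus strand), and for Sars, which was higher in aged oocytes and held the ETS core on the opposite strand, 10 to 4 bases before its start (chr3:108445260-108445509, minus strand; motif in capitals).
Farsb: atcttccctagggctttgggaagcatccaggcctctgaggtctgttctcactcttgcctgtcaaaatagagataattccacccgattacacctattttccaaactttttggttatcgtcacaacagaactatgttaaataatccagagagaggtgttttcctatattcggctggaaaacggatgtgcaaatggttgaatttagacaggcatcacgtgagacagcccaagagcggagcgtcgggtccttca
Sars: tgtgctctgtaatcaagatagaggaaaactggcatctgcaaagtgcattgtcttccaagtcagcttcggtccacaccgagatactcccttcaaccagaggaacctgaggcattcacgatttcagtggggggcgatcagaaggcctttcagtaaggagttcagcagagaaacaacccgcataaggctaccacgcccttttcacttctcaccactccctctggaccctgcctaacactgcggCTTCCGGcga
A match is a run of letters in this window and was not tested for function.

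In young oocytes the cytosolic synthetases spanned several orders of magnitude, with the phenylalanine enzyme's β subunit far above all others. Levels between genes are compared as CPM per kb of the longest coding transcript. Farsb was at 103, 143 and 173 CPM per kb (lowest, median and highest of 35 oocytes) and did not overlap with any other cytosolic member. Eprs, the fused glutamate and proline enzyme, followed at 39.1, 50.5 and 67.1 CPM per kb, and Iars, for isoleucine, at 23.4, 37.7 and 51.5 CPM per kb. The ranges of Eprs and Iars overlapped, and counted over the union of all exons Eprs was 6th of 20 and Farsb still first. Farsa, the α subunit that pairs with Farsb in one enzyme, was at 5.77, 16.0 and 22.7 CPM per kb, below every value of Farsb.

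At the other end stood Mars, Vars and Yars. Mars, which charges the initiator as well as the elongator methionine tRNA, was at 0, 0.661 and 1.93 CPM per kb, with counts in 32 of 35 young oocytes. Counted over the union of all exons, Mars was 17th of 20 and Aars 18th. Vars, for valine, was at 0, 0.0959 and 0.874 CPM per kb. Yars, for tyrosine, had 5 counts over all 35 young oocytes (0.0165 CPM, exact Poisson 95% interval 0.00535 to 0.0385, counting error only), so the only cytosolic tyrosine enzyme was close to the limit of 3 counts, 0.00989 CPM. Its highest oocyte reached 0.101 CPM per kb. The order among the middle genes, from Wars at 35.1 to Sars at 5.26 CPM per kb, rests on overlapping ranges of neighbours.

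**Figure D1:**
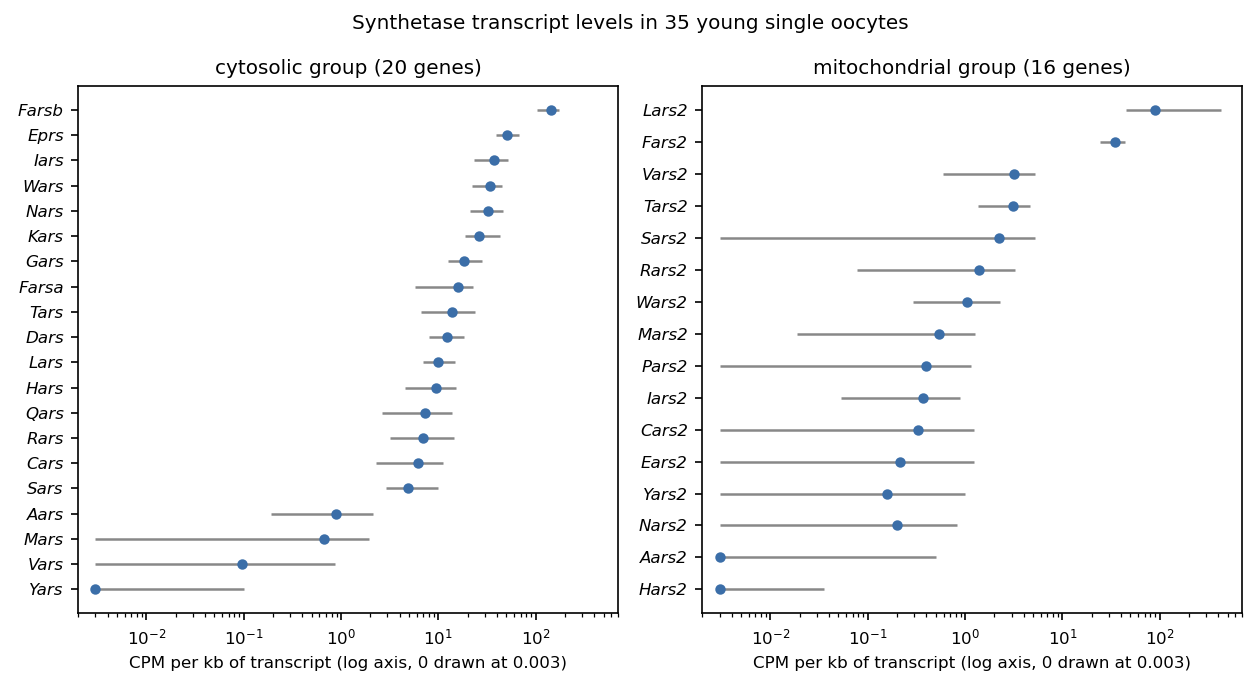
Transcript levels of 36 synthetase genes in 35 young single oocytes, as CPM per kb on a log axis, for the cytosolic group at left and the mitochondrial group at right; dots are medians and lines run from the lowest to the highest oocyte, with 0 drawn at the left edge. Farsb (103 to 173) stands clear of the other cytosolic genes, and Lars2 and Fars2 of the other mitochondrial genes.

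In the young single oocytes the mitochondrial group was dominated by a pair of genes. Lars2, the mitochondrial leucine enzyme, was at 45.2, 90.3 and 428 CPM per kb, and Fars2, for phenylalanine, at 24.5, 34.7 and 44.3 CPM per kb. The third, Vars2, was at 0.596, 3.16 and 5.17 CPM per kb, and its range overlapped with that of Tars2. The lowest were Nars2 at 0, 0.201 and 0.821, Aars2 at 0, 0 and 0.505, and Hars2 at 0, 0 and 0.0357 CPM per kb, the last with 5 counts over 35 oocytes. Counted over the union of all exons, Nars2 was 13th of 17, and Aars2 and Hars2 were still the lowest. In these oocytes the highest gene of each group thus charged phenylalanine or leucine, and phenylalanine had a high transcript in both compartments. The place of Lars2 did not hold in the siCtrl pools of young oocytes, where it was at 8.68 and 9.11 CPM against 136 and 147 CPM for Fars2. What the reads of Lars2 are cannot be told from gene counts. Hars2 shares 195 exon bases with Hars on the opposite strand. Reads of such partners cannot be told apart, because the strand setting of the counting is not known from the sources used. In all, 14 of the 37 genes had an exon that overlaps another gene, 3 of them over more than 10% of their exon bases, among them Aars with Exosc6 (14.3%) and Iars2 with Rab3gap2 (22.9%). A processed pseudogene, Gm4849, matches Iars at 96.0% over 1656 bases. Gm4849 had 229 counts over all single oocytes, against 51888 in young and 41375 in aged oocytes for Iars. How reads that match both genes were counted is not known from the sources used.

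Spread between young oocytes followed level only in part. The coefficient of variation was 10.8% for Farsb, 12.8% for Eprs and 14.9% for Fars2, and 37.4% for Qars and 38.3% for Rars. Lars2, the most abundant member of all in CPM, had the highest of these values at 77.0%. Summed over the 20 cytosolic genes, the level was 1056, 1267 and 1407 CPM (lowest, median and highest), with a coefficient of variation of 6.21%, so the sum varied less than Farsb alone.

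After depletion of Plat, 1 synthetase gene rose and 1 fell. Of the 35 members in the pools, 28 passed the filter on low counts, all 19 cytosolic and 9 of 16 mitochondrial genes. The gene that rose was Farsb, 1 of 28 against 2.13% of all 11136 tested genes called higher, and the gene that fell was Qars, 1 of 28 against 1.41% called lower. With both directions together 3.54% of all genes were called, so these counts lie near the background. At an unadjusted p below 0.05 there were 5 of 28 (Farsb, Gars and Kars higher, Qars and Rars lower), all cytosolic, against 18.8% of all genes. The median log2 fold change of siPlat over siCtrl was -0.02 over the 28 genes and -0.03 over all genes. In pools, fewer RNA molecules per oocyte and fewer contributing oocytes cannot be told apart.

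**Figure D2:**
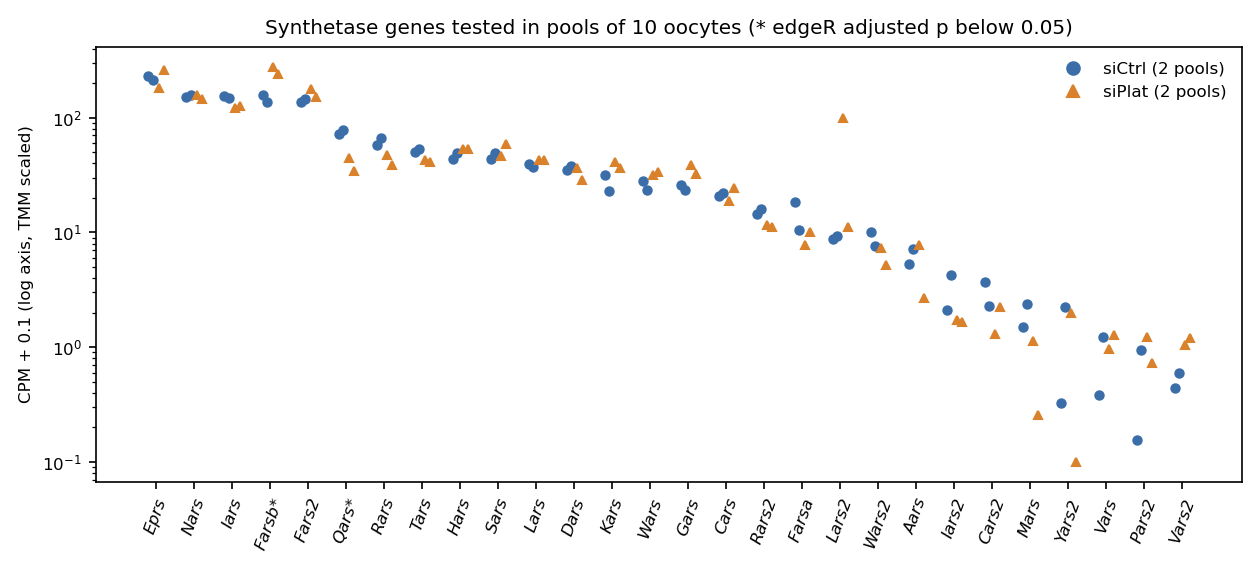
Synthetase genes tested in pools of 10 oocytes, ordered by their siCtrl mean; each point is 1 pool, as CPM after TMM scaling plus 0.1 on a log axis. Triangles are siPlat and dots siCtrl. The asterisks mark Farsb and Qars, called by edgeR, and 1 siPlat pool of Lars2 stands at 98.7 CPM.

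Farsb, which encodes the β subunit of the tetrameric phenylalanine enzyme, had 158 and 136 CPM in siCtrl 1 and 2, against 278 and 242 CPM in siPlat 1 and 2. Both siPlat pools lay above both controls, as they also did for Hars and Lars, which were not called. The mean rose from 147 ± 15.7 to 260.2 ± 25.2 CPM (mean and SD of 2 pools, n = 2). On the log2 scale this was 0.83 (SE 0.17, 1.77-fold, edgeR adjusted p = 0.0251). The α subunit did not pass the test. Farsa had 18.3 and 10.3 CPM in siCtrl against 7.67 and 9.90 CPM in siPlat (log2 fold change -0.70, SE 0.34, edgeR adjusted p = 0.294), and its siPlat pools were the lowest values. Farsb shares 248 exon bases with Sgpp2 on the opposite strand, and Sgpp2 was at 0.862 to 2.46 CPM in the 4 pools. The call on Farsb rested on having both controls: without siCtrl 1 the log2 fold change was 0.94 (edgeR adjusted p = 0.104) and without siCtrl 2 it was 0.72 (0.264). Over all alternatives the adjusted p of Farsb ran from 0.000308 to 0.264.

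Qars, the glutamine enzyme of the multisynthetase complex, had 71.7 and 78.1 CPM in siCtrl against 44.0 and 34.3 CPM in siPlat. No siPlat pool reached the controls, which also held for Iars and Tars, neither of them called. The mean fell from 74.9 ± 4.48 to 39.2 ± 6.87 CPM (SD, n = 2), which is -0.93 on the log2 scale (SE 0.20, 1.91-fold lower, edgeR adjusted p = 0.0279). This call also ended without siCtrl 1 (log2 fold change -0.99, edgeR adjusted p = 0.108) or without siCtrl 2 (-0.87, 0.174), and over all alternatives its adjusted p ran from 0.00135 to 0.174. With a pool left out, the lone pool of that arm is assumed to vary like the other group.

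Rars, the arginine enzyme of the same complex, had 58.2 and 66.3 CPM in siCtrl against 46.9 and 39.0 CPM in siPlat (log2 fold change -0.54, SE 0.20, edgeR adjusted p = 0.166). Of the 8 complex members, all tested, 6 had a log2 fold change below 0, with a median of -0.23. The exceptions were Kars at 31.3 and 22.7 against 41.0 and 36.3 CPM (0.51, SE 0.23, edgeR adjusted p = 0.247) and Lars (0.17). Of the 11 cytosolic genes outside the complex, 7 were above 0, with a median of 0.18. Among all 11136 tested genes, 5815 were below 0 and 5321 above. By catalytic fold, the median was -0.30 over 15 class I genes and 0.19 over 12 class II genes. These counts and medians are descriptions of short lists and were not tested against all genes. Gars, the glycine enzyme, was at 26.0 and 23.2 against 38.8 and 32.5 CPM (0.54, SE 0.21, edgeR adjusted p = 0.204). Eprs, the most abundant in the controls at 231 and 214 CPM, had 183 and 260 CPM in siPlat, on both sides of the controls.

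In the mitochondrial group no gene passed the test (0 of 9 called by edgeR, 0 at an unadjusted p below 0.05), and the median log2 fold change was -0.30. The largest value belonged to Lars2, with 8.68 and 9.11 CPM in the controls against 98.7 and 11.1 CPM in siPlat 1 and 2. A single pool carries it: the log2 fold change was 2.62 (SE 1.42, edgeR adjusted p = 0.497), and 0.31 without siPlat 1 (adjusted p = 0.714). Without siPlat 2 it was 3.48 and past the threshold (adjusted p = 3.3e-11), and over all alternatives the adjusted p ran from that value to 0.870. Fars2 was at 136 and 147 against 178 and 152 CPM (0.22, SE 0.17, edgeR adjusted p = 0.530). Rars2 had a log2 fold change of -0.42 and Wars2 one of -0.52, neither past the threshold. Aars2, Ears2, Mars2, Nars2, Sars2 and Tars2, which were not tested, stood at 0 to 16 counts in each pool.

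Around the synthetases, single genes of 2 lists were called, Ssb and Cebpb, at shares to be read against the 2.13% of all genes called higher. None of the 3 complex scaffolds was called (median log2 fold change 0.46), and none of 11 genes for accessory charging and tRNA editing (0.22), 7 cytosolic elongation factors (0.18) or 4 mitochondrial elongation factors (-0.15). Among 16 tested genes for tRNA maturation and export, Ssb, the La protein that binds new tRNA precursors, rose from 4600 ± 437 to 6989 ± 81.0 CPM (SD, n = 2 per group; log2 fold change 0.60, edgeR adjusted p = 0.0325). Of 20 tested genes of the amino acid response, Cebpb, a partner of Atf4 on such composite sites, rose from 6.99 ± 1.10 to 22.7 ± 6.82 CPM (1.70, edgeR adjusted p = 0.0146). The 11 synthetases that Atf4 is known to induce had 0 calls by edgeR, 1 at an unadjusted p below 0.05, and a median of -0.01. Oocyte markers moved with the treatment too: Zp1, Gdf9 and Mos fell (3 of 10 tested), although their list summed to 25712 and 26929 CPM in the controls and 29640 and 25014 CPM in siPlat. Cumulus and granulosa markers, 5 of 12 listed in this table, summed to 44.0 to 59.9 CPM with overlapping groups. The other lists did not overlap: blood and immune markers, 2 of 8 listed, summed to 8.12 and 8.41 CPM in siCtrl and 4.999 and 4.08 CPM with siPlat, and stroma, theca and endothelium markers, 6 of 8, to 29.1 and 28.0 against 22.7 and 21.3 CPM. None of these had a called member (0 of 6 tested by edgeR, 2 at an unadjusted p below 0.05). The part of all these markers in the results on Farsb and Qars was not tested.

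With age, 3 synthetase genes, Rars, Sars and Lars2, were at least 1.5-fold higher in summed counts. This held with all 59 aged oocytes and without the 21 of high mitochondrial share. In those 21 alone, Rars was lower than in young oocytes (1.70 against 14.95 CPM). Each age was 1 sample, so these are values of summed counts with no test and no p. A pseudocount of 1 CPM was added before the log2 ratio, and only genes with a mean of at least 5 CPM over both ages were counted. With all 59 aged oocytes the 3 stood among 21 members, against 9.45% of all 8303 genes at least 1.5-fold higher. Without the 21 libraries of high mitochondrial share they stood among 22 members, against 8.87% of 8413 genes. With so few members, a count of 3 lies near these shares, and it was not tested against them. Lower by at least 1.5-fold was 1 of 21 (Hars) with all oocytes, against 9.38% of all genes, and 0 of 22 without the 21 libraries, against 1.87%. The median log2 ratio of cytosolic genes was -0.36 with all aged oocytes (all genes -0.07) and -0.05 without the 21 (all genes 0.08). Of the cytosolic genes, 5 of 16 and 6 of 17 lay above the median of all genes. Cell type markers differed in the same oocytes: without the 21, the oocyte markers Zp2 and Ooep were both 2.00-fold higher in aged, and the endothelial marker Pecam1 1.503-fold lower. Of the 10 oocyte markers, 8 had a log2 ratio above 0 and 2 below. Gdf9 was at 10368 CPM in young and 7671 CPM in the 38 aged, and Mos at 1169 and 1041 CPM. The stroma, theca and endothelium list summed to a median of 173 CPM in young, 111 CPM in the 38 and 16.2 CPM in the 21. Most of this was Pecam1 in young and the 38 (156 and 103 CPM over summed counts, 5.05 in the 21). Other genes of the list went either way, with Kdr at 6.23, 5.43 and 2.21 CPM and Tek at 4.70, 5.05 and 9.13 CPM. The part of all these markers in the age results was not tested.

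**Figure D3:**
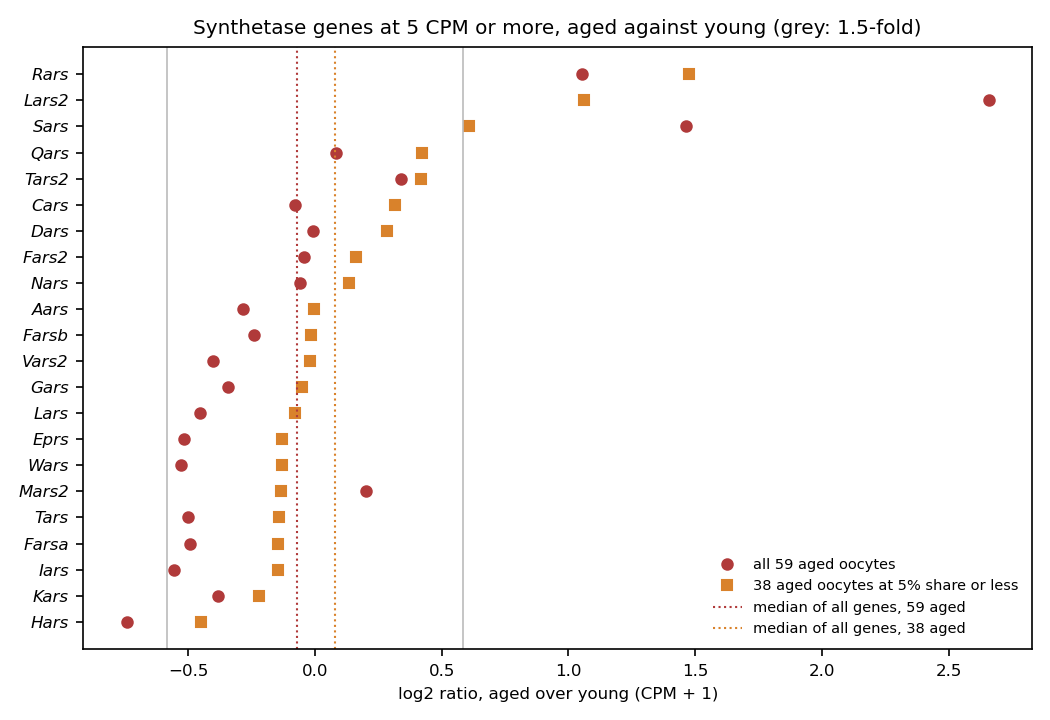
Log2 ratio of aged over young (CPM plus 1, summed counts) for the synthetase genes at 5 CPM or more, with all 59 aged oocytes (circles) and with the 38 at a share of 5% or less (squares); grey lines mark 1.5-fold and dotted lines the median of all genes. Rars, Lars2 and Sars lie beyond the right grey line in both, and Hars beyond the left one with all oocytes.

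Rars was at 6.66, 14.5 and 30.2 CPM in the 35 young oocytes (lowest, median and highest) and at 19.1, 44.8 and 77.5 CPM in the 38 aged oocytes of low mitochondrial share. Of these 38, all exceeded the young median and 33 the highest young oocyte, while 25 of 35 young oocytes lay below the lowest aged one. The summed level was 14.95 CPM in young (exact Poisson 95% interval 14.5 to 15.4, counting error only) and 43.4 CPM in the 38 aged (42.6 to 44.2), a log2 ratio of 1.48 (2.78-fold). In the 21 libraries of high share Rars was far lower, at 0, 0.621 and 7.50 CPM, and 20 of 21 lay below the lowest young oocyte (summed, 5.90-fold lower than young). With all 59 the log2 ratio was 1.05 (32.1 CPM). Scaled to the ERCC spike-ins, synthetic RNAs counted beside the oocyte's own, the ratio with all 59 turned to -0.35, on a scale where the median of all genes was -1.47. Without the 21 it stayed above 0 on that scale, at 0.66, with all genes at -0.73. ERCC counts ran from 70141 to 427387 in young oocytes, 117428 to 431162 in the 38 aged and 121882 to 1553073 in the 21. The scale assumes an equal amount of spike-in in each library, which was not tested.

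Sars, the serine enzyme, was at 10.3, 17.6 and 35.5 CPM in young oocytes, 10.6, 29.5 and 51.7 CPM in the 38 aged and 17.4, 109 and 259 CPM in the 21 of high share. The young and the 38 aged overlapped widely, with 33 of 38 above the young median and 11 above the highest young oocyte, whereas 20 of the 21 exceeded every young oocyte. Summed, Sars was at 18.8 CPM in young (18.3 to 19.3), 29.2 CPM in the 38 aged (28.5 to 29.9) and 53.6 CPM in all 59. The log2 ratio was 0.61 (1.53-fold) without the 21 and 1.46 (2.76-fold) with them. The first value is just past the 1.5-fold line, and on the ERCC scale it turned to -0.19 with all genes at -0.73, while with all 59 it was 0.03. Within the 38 aged oocytes the level of Sars followed the mitochondrially encoded share of counts (Spearman rho 0.67), more closely than in the 35 young (0.31) or the 21 of high share (-0.06). Each point is 1 library, and level and share have the same total, so this is a description, and the part of the share in the result was not tested.

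**Figure D4:**
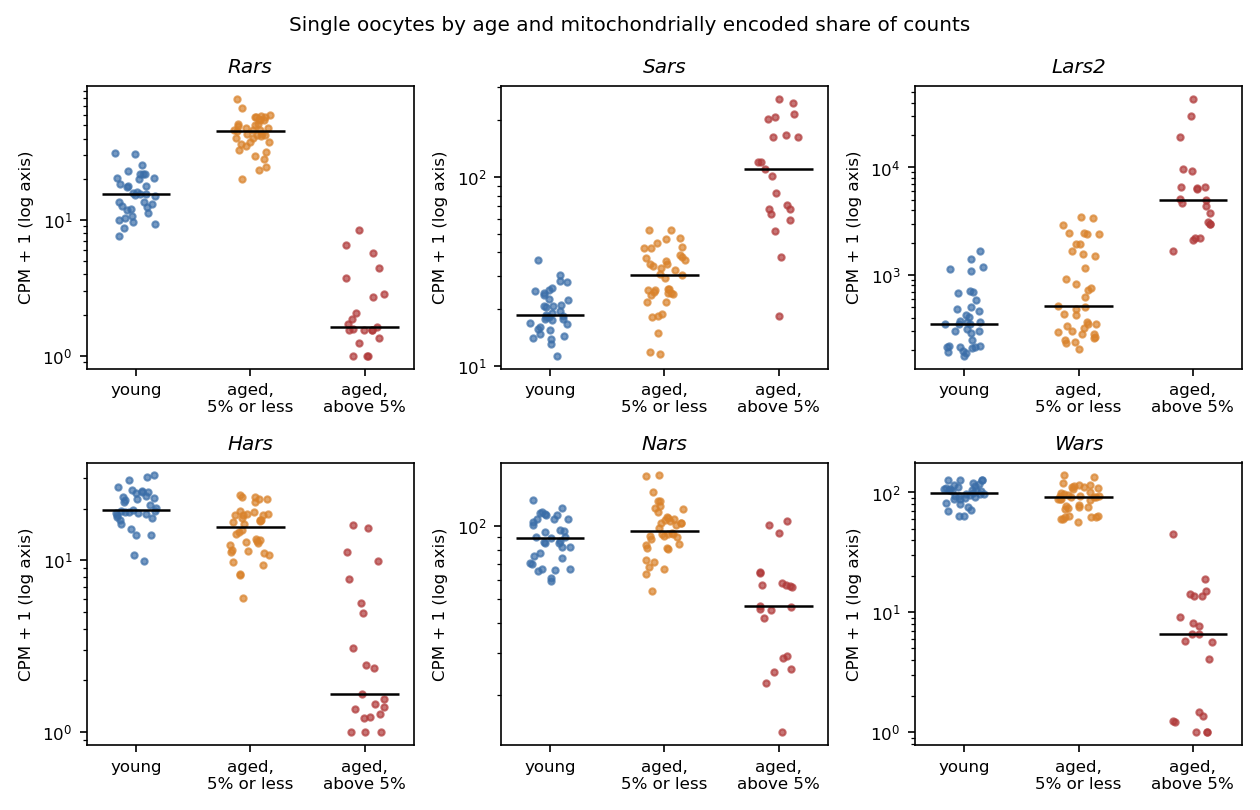
CPM plus 1 on a log axis for 6 synthetase genes in 35 young oocytes, 38 aged oocytes with a mitochondrially encoded share of 5% or less and 21 aged oocytes above 5%; each dot is 1 oocyte and bars are medians. Rars is high in the 38 aged and low in the 21, Sars and Lars2 are highest in the 21, and Hars, Nars and Wars are lowest there.

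Lars2 was at 176, 352 and 1665 CPM in young oocytes, 205, 512 and 3470 CPM in the 38 aged and 1662, 4938 and 43540 CPM in the 21 of high share. The young and the 38 aged overlapped, with 24 of 38 above the young median and 9 above the highest young oocyte, and 20 of the 21 exceeded every young oocyte. The log2 ratio of summed counts was 1.06 (2.09-fold) without the 21 and 2.66 (6.32-fold) with them. By medians over oocytes without the 21 it was 0.54, under the 1.5-fold line. Lars2 moved with the mitochondrially encoded share only loosely within groups (rho 0.33 in young, 0.33 in the 38 and 0.17 in the 21). No exon of another gene overlaps Lars2. No transcript of another gene matched its longest coding transcript at 90% over 200 bases or more. That transcript has 3894 bases, the union of all Lars2 exons has 11089, and the remainder was not searched. What the reads of Lars2 are cannot be told from gene counts. Without Lars2, the 16 other mitochondrial genes summed to 88.5, 125 and 162 CPM in young, 111, 137 and 178 CPM in the 38 aged and 7.88, 56.7 and 209 CPM in the 21. The first 2 ranges overlapped widely, and the 21 reached both below and above them.

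Hars, the histidine enzyme, was at 8.96, 18.7 and 30.3 CPM in young oocytes and 5.05, 14.7 and 23.2 CPM in the 38 aged. Only 6 of the 38 were above the young median, none (0) exceeded the highest young oocyte, and the groups overlapped over most of their range. Its log2 ratio was -0.45 without the 21 libraries, short of 1.5-fold, and -0.74 with them. Without the 21, the other members at 5 CPM or more lay between Hars and Sars, apart from Rars and Lars2. Qars, which fell in the siPlat pools, had a log2 ratio of 0.42 without the 21 and 0.08 with them (-0.38 and -1.29 on the ERCC scale), and Farsb, which rose there, one of -0.02 and -0.24. Rars2, the mitochondrial arginine enzyme, was at 2.64 CPM in young and 5.94 CPM in the 38 aged, a log2 ratio of 0.93, but under the minimum level for the count.

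Summed over the cytosolic group, young oocytes and the 38 aged had nearly the same range. The sum was 1056, 1267 and 1407 CPM in young oocytes and 1117, 1237 and 1398 CPM in the 38 aged, with coefficients of variation of 6.21% and 6.17%. The 21 libraries of high share had 190, 406 and 759 CPM, below both. With mitochondrially encoded genes taken out of the total they had 277, 567 and 1661 CPM, which overlaps with 1072 to 1421 CPM in young and 1131 to 1423 CPM in the 38. Against the other aged oocytes, 15 of 16 cytosolic genes were at least 1.5-fold lower in the 21, against 58.5% of all 8087 genes, and Sars alone was higher (3.997-fold), against 14.8%. With this nuclear total, the count was 13 of 16 against 46.9%. Nars was at 13.1 to 104 CPM in the 21, and Wars, for tryptophan, at 0 to 43.8 CPM against 63.1 to 127 CPM in young oocytes. The 8 genes of the multisynthetase complex summed to 27.4, 73.2 and 199 CPM in the 21 and to 453, 585 and 745 CPM in the other 38, while the 12 outside it summed to 149, 338 and 562 against 573, 663 and 755 CPM. With nuclear totals both ranges overlapped, the complex at 42.0 to 477 against 457 to 761 CPM and the others at 207 to 1184 against 583 to 769 CPM. Oocyte markers were low in the same 21 libraries, as given above, and their part in these values was not tested.

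From oocyte to oocyte the cytosolic transcripts did not move as a block. Over the 120 pairs of 16 genes at 10 CPM or more, the median Spearman rho was 0.04 in 35 young oocytes (-0.76 to 0.58) and 0.04 in the 38 aged (-0.65 to 0.77). Nars, Rars and Sars were among the closest in young oocytes: Nars and Rars had a rho of 0.57, Rars and Sars of 0.56 and Nars and Sars of 0.54 in young oocytes, and 0.44, 0.59 and 0.77 in the 38 aged. In the aged, pairs outside this trio lay above the value of Nars and Rars, among them Dars and Wars (0.52), Farsa and Wars (0.52), Cars and Hars (0.52), Eprs and Iars (0.50), Eprs and Lars (0.50) and Hars and Tars (0.48). Wars went the other way, with a rho of -0.76 to Rars and -0.67 to Nars in young oocytes and of -0.19 and -0.65 in the aged. Farsb and Wars had the highest value in young oocytes (0.58). Every pair shares its libraries and its total count, so these values are descriptions and were singled out after they were seen.

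**Figure D5:**
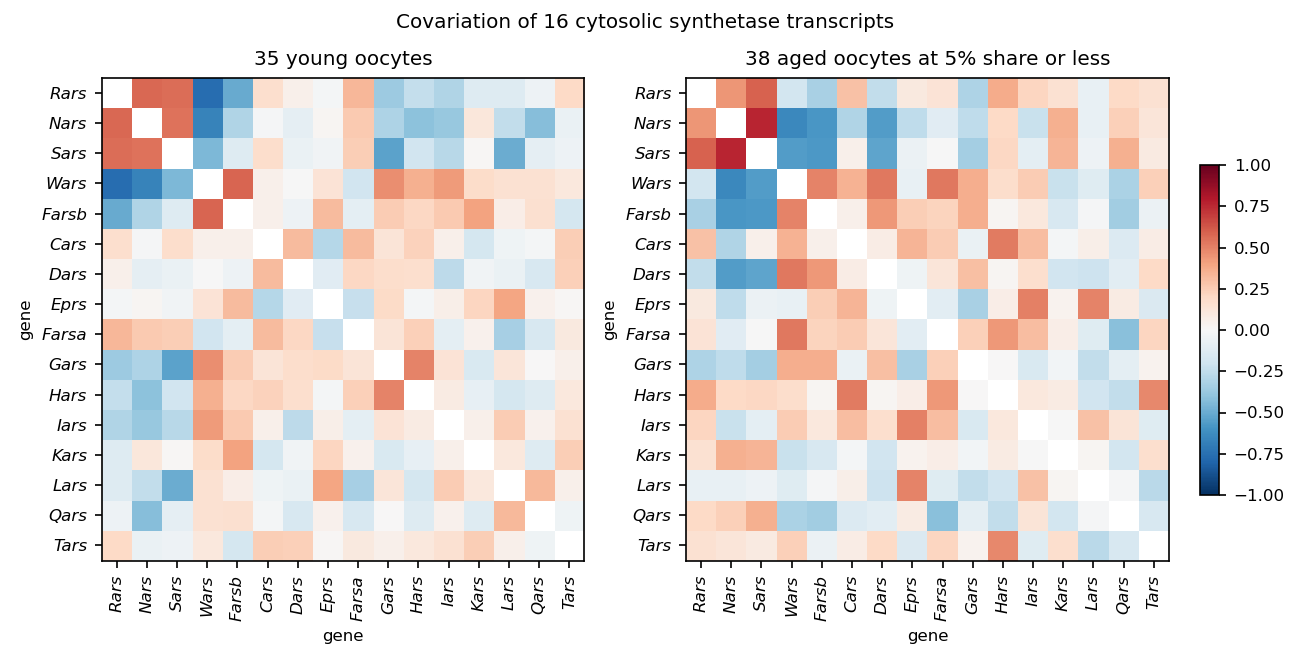
Spearman rho across oocytes for each pair of 16 cytosolic synthetase genes, in 35 young oocytes at left and 38 aged oocytes at right, on a scale from blue (negative) to red (positive); Rars, Nars, Sars, Wars and Farsb are placed first and the rest follow by name. The red block of Rars, Nars and Sars and its blue band with Wars appear in both panels, fainter for Rars with Wars in the aged oocytes.

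In the surrounding pathway, counts past 1.5-fold are to be read against the same shares of all genes, 8.87% higher and 1.87% lower without the 21 libraries. In that setting, 1 of 15 amino acid response genes at 5 CPM or more was past 1.5-fold: Ddit3, a transcription factor induced by Atf4, was at 3.32 CPM in young and 7.17 CPM in aged oocytes (1.89-fold). Ddit3 overlaps Mars by 68 exon bases on the opposite strand. Of 6 cytosolic elongation factors 1 was past the line, Eef1a1, which delivers charged tRNA to the ribosome (31.1 against 49.4 CPM, 1.57-fold). None (0) of the scaffolds, accessory charging genes, tRNA maturation genes or mitochondrial elongation factors was. With all 59 oocytes Atf4 itself was at 34.9 against 57.5 CPM (1.63-fold), and Ptrh2, a peptidyl-tRNA hydrolase, was 1.57-fold higher. With all 59, Nsun2, a tRNA methyltransferase, and the mitochondrial elongation factors Tsfm and Gfm1 were 1.55-, 1.52- and 1.64-fold lower. The synthetases that Atf4 is known to induce had a median log2 ratio of -0.45 with all oocytes and -0.07 without the 21, and of them only Sars was past 1.5-fold higher in either. With the 21 libraries left out, the genes whose windows hold the Atf4 element had log2 ratios of -0.14 (Tars), -0.05 (Gars) and -0.0024 (Aars).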

How the data were processed

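The authors deposited raw read counts, 1 whole number for each gene and library, in 1 table for the pools and 1 for the single oocytes; STAR 2.7.10b, HTSeq 0.13.5 and mm10 are named per the submitters' processing notes, and the annotation and strand setting are not given in the sources used here. The members and gene lists were chosen with earlier results of these data known. Pools were tested with edgeR 4.0.16 in R 4.3.3 (quasi-likelihood, robust fit, TMM factors, filter at a minimum count of 10 and total of 15), with Benjamini-Hochberg adjusted p below 0.05 as the threshold over all 11136 genes tested; standard errors are the log2 fold change over the square root of F. The 4 pools differed within groups by more than counting error (chi-square per degree of freedom 19.3 and 30.8). Oocyte counts were summed by age and divided by gene totals without the 92 ERCC entries; exact Poisson intervals at 95% cover counting error only, since PCR reads carried no molecular identifiers. The minimum was 5 CPM and the pseudocount 1 CPM. Genes were placed with GENCODE M21 on GRCm38, the assembly mm10 names. Near copies came from blastn 2.17.0 with the longest coding transcript of each gene. Every member could be named; values in every sample went to called or 1.5-fold members and to the 3 highest and 3 lowest per kb of each group. Pool and oocyte scripts were tested on simulated data. One member and 1 sequence are counted but not reported here. DESeq2 1.42.0 and limma 3.58.1 served as alternatives.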

Additional observations from a re-analysis of the deposited data

How the results depend on the processing

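In the pools, leaving out 1 library at a time gave 0 to 2 synthetase genes called higher and 0 to 1 called lower, and 72 to 645 genes called higher and 68 to 500 called lower over the whole table. DESeq2 called 421 genes higher against 237 by edgeR, and without the expression filter edgeR called 240 lower against 157. Farsb and Qars kept their calls under DESeq2, limma-voom, DESeq2 size factors, no filter and no robust fit, and 25 of 28 genes stayed on 1 side of the threshold in every alternative that gave an adjusted p, the exceptions being Farsb, Qars and Lars2. There were 10 such alternatives for 21 genes and 9 for 7 genes, to which DESeq2 gave none. The replicate numbers name pools and no label pairs them. With the number as a block, Farsb was at 0.83 (edgeR adjusted p = 0.0382) and Qars at -0.94 (0.0490), so the block ended no call among the members. Same-numbered pools' deviations had a correlation of -0.0983 over 11136 genes.

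With age, 4 of the 6 members with a log2 ratio above 0 turned below 0 on the ERCC scale with all oocytes, and 7 of 9 without the 21 oocytes above 5% mitochondrial share. Of the genes past 1.5-fold these were Rars, at -0.35 with all oocytes, and Sars, at -0.19 without the 21. On that scale 1 member was at least 1.5-fold higher with all oocytes (Lars2, 1.18), against 0.377% of all genes. Without the 21 it was 1 other, Rars, against 0.257%. Lower on that scale were 17 and 13 members, against 95.8% and 65.6%. The count of lower members was 1 with all oocytes, 7 by the mean and 2 by the median over oocytes, and 0 at a minimum of 20 CPM, against 9.38%, 16.2%, 8.87% and 11.1% of all genes. It was 0 in each remaining setting without the 21, namely summed counts, medians and the nuclear gene total.

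The median log2 ratio of cytosolic genes was -0.36; it was -0.051 without the 21, -0.22 with nuclear totals, -1.78 on the ERCC scale, -0.48 by means and -0.21 by medians over oocytes. It was -0.37 and -0.33 with pseudocounts of 0.1 and 5 CPM and -0.31 at a minimum of 1 CPM. Without the 21 it was -0.055 by medians, -0.88 on the ERCC scale and -0.044 with nuclear totals. The mitochondrial median was 0.20, with 0.16 without the 21, -1.22 on the ERCC scale, 0.28 by means and 0.0012 by medians, 0.23 and 0.14 with the pseudocounts, and 0.055 and 1.31 at minimums of 1 and 20 CPM. Without the 21 it was 0.060 by medians, -0.50 on the ERCC scale and 0.17 with nuclear totals. The summed mitochondrial level had a log2 ratio of medians of 1.91, and 0.046 without Lars2. The ERCC and nuclear settings without the 21, and the sum without Lars2, were chosen after seeing the data. The cause of these shifts was not tested.

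The pools had 2 libraries per group, and each age was 1 sample with no animals named, so age differences have no replicate check. Yars, Hars2 and Aars2 were near the counting limit, and pools and single oocytes were counted in separate tables.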

Other observations

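The control pools and the young single oocytes were both young MII oocytes, but they stand in tables made separately, one of oocytes treated with siCtrl in groups of 10 and one of single untreated oocytes, so their values are set side by side with no test. Of 35 members, 21 had siCtrl pools within or straddling the range of the 35 young oocytes, 7 had both pools above it and 7 both pools below it. The share of all genes outside such a range was not counted, so these counts show nothing particular to the synthetases. Pool values were TMM scaled and oocyte values were not. Rars was at 58.2 and 66.3 CPM in siCtrl against 6.66 to 30.2 CPM in young oocytes, and Qars at 71.7 and 78.1 against 7.46 to 39.1 CPM. Fars2, Hars, Nars, Rars2 and Sars were above the range too. Lars2 was at 8.68 and 9.11 CPM against 176 to 1665 CPM, and Farsb at 158 and 136 against 209 to 352 CPM. The other genes below the range were Gars, Kars, Tars2, Vars2 and Wars. For Rars, the siCtrl pools also exceeded the summed level of the 38 aged oocytes, 43.4 CPM. Sars, at 43.2 and 49.0 CPM in siCtrl, exceeded its 29.2 CPM in the 38, whereas Lars2 lay below its 992 CPM. Pool totals hold 0 mitochondrially encoded genes, and those of single oocytes hold 37.

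Yars had 3 counts in the 38 aged oocytes of low mitochondrial share and 207 in the 21 of high share, where 1 oocyte reached 45.9 CPM. Hars2 had 0 counts in the 38, which allows up to 0.0115 CPM (3 counts), and 6 in the 21.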
